A study of Vitis vinifera with 156 samples.

Results

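The genes described here are the 100 whose transcript counts differed most between grapevine buds sampled from the same temperature regime on the same day. They were taken from 42413 rows of a count table, of which 30267 held at least 1 count. Counts were expressed as CPM, the counts of a gene per 1000000 counts of its library, and then as log2(CPM + 1). Libraries with at least 1000000 counts were used, and the standard deviation (SD) of log2(CPM + 1) was taken in each of the 40 groups that had 3 such libraries. Of the 4641 genes with a mean of at least 20 CPM, the 100 with the highest median SD over those groups were kept. Measured values of the same buds therefore chose the genes, and their spread between like buds, and how it is shared among them, is given below as a description with no test. The table pairs no gene identifier with its rows, so a gene is named by the number of its row, counted from 1 after the header, and no symbol, sequence, position or function is given.

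A grapevine bud set in summer holds a compressed shoot with its leaf and inflorescence primordia under protective scales. In endodormancy its growth is held back by signals inside the bud, and a period of chilling is needed before warmth can bring it to grow. Cold also raises the freezing tolerance of the bud, a process called cold acclimation, in which membranes, soluble sugars and protective proteins change. How many buds made up a library is not given in the sources used here.

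The buds came from endodormant cuttings of Cabernet Sauvignon, a wine grape cultivar of Vitis vinifera, kept in growth chambers. Pretreatment buds were taken at day 0. In the constant regimes cuttings stayed at 2, 4, 7 or 11 °C and were sampled early (days 7, 13, 20 and 26) and late (days 34, 41, 55 and 69), or stayed at 22 °C with the same days up to day 55. In the fluctuating regimes cuttings spent phase I, until day 26, at 2, 7 or 11 °C and were then all moved to a mean of 7 °C with a daily swing of ± 5 °C, and they were sampled on the 4 late days. Each of the 52 combinations of regime and day had 3 libraries. The labels call these replicates but do not say that they came from separate plants, so the p-values below measure the spread between these libraries only. Defining markers of bud tissue could not be looked up without gene identifiers. In such bulk samples fewer cells of a type and less RNA per cell cannot be told apart.

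Library totals ran from 27485 to 7138863 counts with a median of 2228888, and all but 17 libraries reached 1000000. The 120 libraries of the 40 groups held 1015518 to 7138863 counts, so that 3 counts in the shallowest of them stood for 2.95 CPM. This limit covers counting error only. The library names divide the samples into a First set of 86 and a Second set of 70 libraries. The Second set held every library of 4 °C and of fluctuation, the First set every library of the pretreatment and of constant 2, 7 and 11 °C, and at 22 °C the libraries passed from one to the other at day 26. The 120 libraries were 66 of the First and 54 of the Second set.

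The median SD of the 100 genes ran from 1.06 to 1.81 on the log2 scale, with a median of 1.25. Over all 4641 genes the median was 0.39 and the 90th percentile 0.70. The last genes taken, 10744, 16109 and 37483, each had a median SD of 1.06, and the first left out, 12768, 3272 and 14383, had 1.06, 1.05 and 1.05, so the 100 end within a continuous range. The genes were of ordinary abundance. Their mean level ran from 20.2 to 4814 CPM with a median of 45.1, against 48.9 over the 4641 genes, and 55 of the 100 lay under 50 CPM. Genes 6516 and 14528, named here after their values were seen, had the 2 highest means, 4814 and 4505 CPM. In 30 of the genes at least 1 library of 1000000 counts or more had no count.

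**Figure D1:**
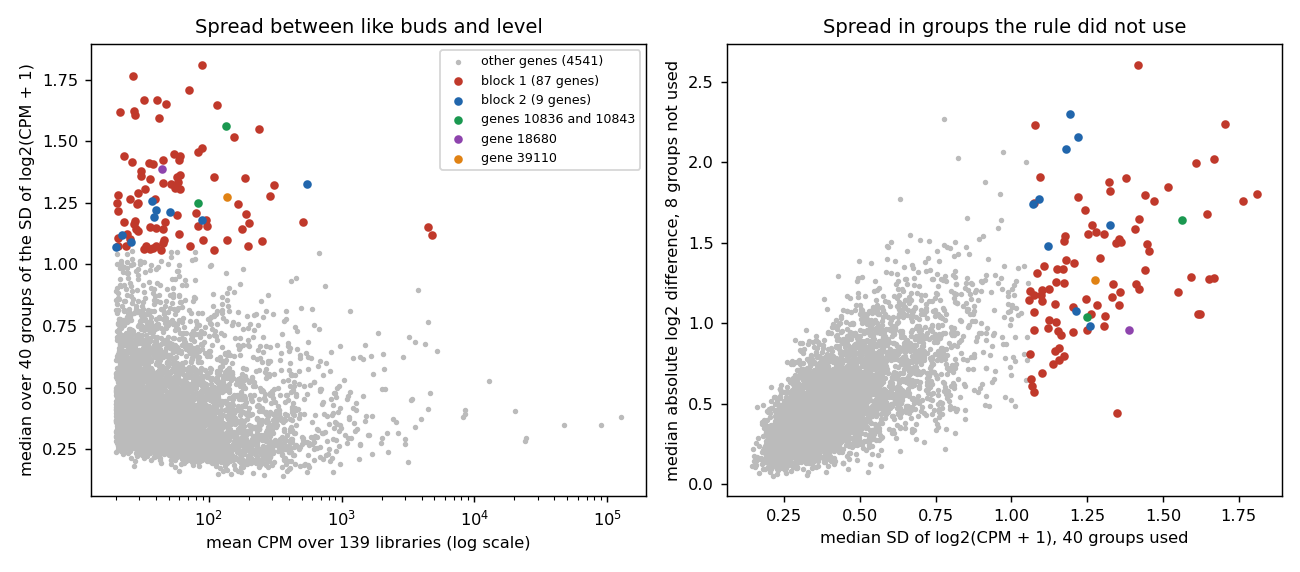
Left, median SD of log2(CPM + 1) between the 3 libraries of a group (40 groups) against mean CPM on a log axis for 4641 genes. Right, the median absolute log2 difference between the 2 libraries of 8 groups that did not enter the SDs, against the same median SD. Each point is a gene, coloured by the block of genes it varied with, and the 100 genes lie at or above 1.06 on the SD axes at all mean levels up to 4814 CPM.

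Gene 4053 had the highest median SD, 1.81. In the buds held at 11 °C and then under fluctuation, its 3 libraries of day 55 read 354, 174 and 4.81 CPM, a ratio of 73.6 between the highest and the lowest. At constant 2 °C on day 55 it read 9.27, 2.84 and 114.6 CPM, and in the buds under fluctuation after 7 °C on the same day 329, 28.02 and 25.8 CPM. In each of these groups 1 library stood far from the other two, in some as the low one and in others as the high one. The gene was not unsteady everywhere. At 22 °C on day 34 its libraries read 152.6, 207 and 177 CPM, a ratio of 1.36. The genes with the next highest median SDs were 1786, 14565, 23877, 30787, 9569, 42013, 34689, 4461 and 29745. Gene 14565 followed the same libraries, with 511, 85.9 and 3.54 CPM after 11 °C on day 55 and 280, 384 and 259 CPM at 22 °C on day 34. Gene 1786 read 136.8, 174 and 2.53 CPM in the first of these groups and 27.6, 29.1 and 20.5 CPM in the second.

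A measure of spread could also be read in libraries outside the SDs. Those libraries did enter the minimum mean of 20 CPM. In 8 groups exactly 2 libraries reached 1000000 counts, and these 16 libraries did not enter the SDs. The median absolute difference between the members of a pair was 1.27 on the log2 scale over the 100 genes and 0.48 over all 4641. It was at least 1 in 80 of the 100 genes, against 7.63% of the 4641. The 90th percentile of all genes, 0.93, was passed by 88 of the 100. The values among the 100 ran from 0.44 to 2.61. The wide pairs were the pretreatment, 2 °C on day 13, and fluctuation after 11 °C (day 34) and after 2 °C (day 55). Their median differences over the 100 genes were 1.42 to 3.96, against 0.37 to 0.93 over all 4641. In the other pairs they were 0.44 to 0.80, against 0.23 to 0.62. The genes chosen in 40 groups were thus widely spread in some groups outside them and much less so in others. Most of these genes vary together, so 80 and 88 of the 100 do not add up as separate observations.

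The 100 genes did not vary independently. Deviations of log2(CPM + 1) from the mean of each group of 3 were correlated between genes over the 120 libraries, which all genes share, and the genes were clustered on those correlations. One cluster, called block 1 here, held 87 of the 100 genes, including the 10 with the highest median SD. A second, block 2, held 9 genes, led by 28051, 29637 and 16069. Genes 10836 and 10843 formed a pair, and genes 18680 and 39110 stood alone. Within block 1 the correlation r between genes had a median of 0.86 and ran from 0.30 to 0.96, and within block 2 the median was 0.64. Between a gene of block 1 and a gene of block 2 the median r was -0.67, and the means of the blocks had an r of -0.81 with each other. Of the 4950 pairs among the 100 genes, 74.7% had an r of at least 0.5, against 13.0% of all pairs among the 4641. A single axis carried 76.6% of the variance of the 100 genes within groups and the next axis 3.95%. A library high for 1 gene of block 1 was thus usually high for the others and low for block 2.

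**Figure D2:**
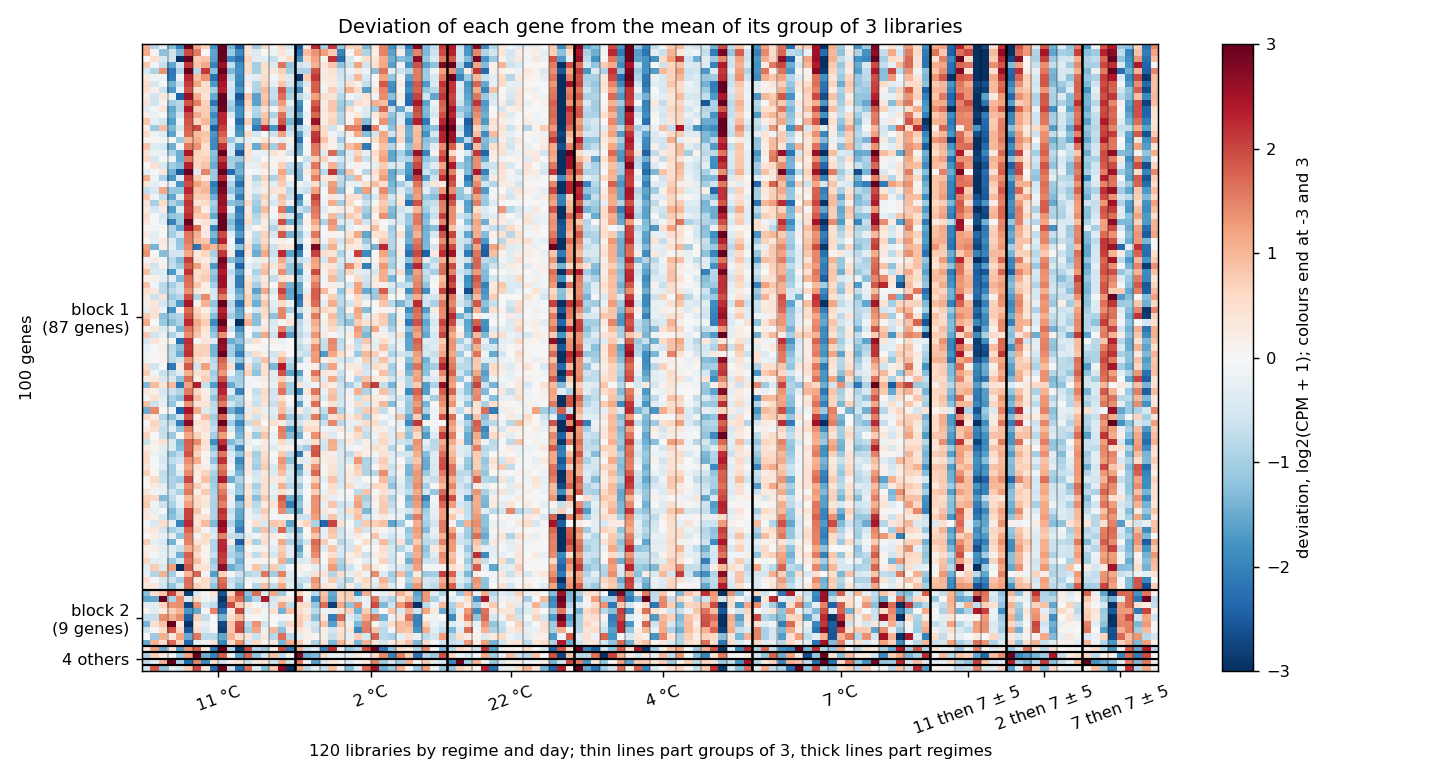
Deviation of log2(CPM + 1) from the mean of the group for the 100 genes (rows) in 120 libraries (columns, ordered by regime and day, 3 to a group). Red is above and blue below the group mean. Most columns have 1 colour through the 87 genes of block 1 and the other colour in the 9 genes of block 2.

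The same blocks were also read within each library set, without clustering the genes anew. Genes and blocks had been chosen from these same 120 libraries, so the values describe the sets and are no separate check of the blocks. The leading axis carried 70.6% of the variance of the 100 genes among First set libraries and 83.6% among Second set libraries, the median r within block 1 was 0.81 and 0.91, and the r between the means of the blocks was -0.79 and -0.83. The median SD of the genes was 1.15 in First set and 1.38 in Second set groups, while that of all 4641 genes was 0.40 and 0.38. The pairs of libraries outside the SDs were of 2 kinds. In 4 of the 8 pairs the mean of block 1 differed by 1.44 to 4.09 in size, and there 85 to 87 of the 87 genes of block 1 moved the same way and 7 to 9 of the 9 genes of block 2 the opposite way. In the other 4 pairs the mean of block 1 differed by 0.04 to 0.29 in size, and 44 to 63 of the 87 genes shared its direction. The widest of these pairs was pretreatment replicates 1 and 2, which read 6.88 and 2.79 for block 1. Pretreatment replicate 3, with 922797 counts, read 2.89. The names of all 3 carry the same sample number with different endings, and whether they are libraries of separate buds or of the same RNA is not given in the sources used here. Gene 4053 read 589 CPM in pretreatment replicate 1 and 3.44 CPM in replicate 2.

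Block 2 ran against block 1. Gene 28051, its member with the highest median SD, read 1487, 800 and 27.6 CPM in the 3 libraries of 4 °C on day 55, where gene 4053 read 9.46, 4.49 and 55.3 CPM. The library that was lowest for gene 28051 was the highest for gene 4053. In the buds under fluctuation after 7 °C, gene 28051 read 17.4, 639 and 613 CPM on day 55, and gene 4053 read 329, 28.02 and 25.8 CPM. The members of block 2 held together less tightly than those of block 1. Gene 1306 had an r of 0.90 with the mean of the rest of the block, gene 29637 had 0.53, and gene 9884 had 0.47.

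Genes 10836 and 10843 varied with each other, with an r of 0.94, and with neither block, since gene 10836 had an r of -0.02 with block 1 and 0.07 with block 2. At 4 °C on day 7 gene 10836 read 1292, 14.5 and 9.81 CPM and gene 10843 read 1164, 28.9 and 17.6 CPM. At 2 °C on day 41 the values were 2393, 49.9 and 101.4 CPM for gene 10836 and 614, 37.3 and 48 CPM for gene 10843. In both groups replicate 1 was high for both genes. The rows most like gene 10843 after its partner were 10840, with an r of 0.74, and 10830, with 0.62, so the 4 most alike rows stand close together in the table. Among the 100 genes, 6 neighbouring pairs of rows lay within 10 rows of each other. What order the rows follow, and whether such neighbours can share reads, is not given in the sources used here, so their values may not be independent.

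Gene 18680 and gene 39110 were high in single libraries and fell into neither block. Gene 18680 read 2.53, 9.22 and 319 CPM at 7 °C on day 26, where the mean log2(CPM + 1) of block 1 was 5.94, 7.09 and 3.57. Over the 120 libraries the r of gene 18680 with block 1 was 0.04. Gene 39110 read 95.8, 2768 and 183 CPM at 22 °C on day 7, and its r with block 1 was -0.32. The row most like gene 18680 was 18956, with an r of 0.53, and the row most like gene 39110 was 40975, with 0.65, both over the 120 libraries.

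The axis along which the 100 genes varied was shared by other genes. In the 4541 genes of at least 20 CPM that were not among the 100, the leading axis carried 41.9% of the variance within groups, and its r with the axis of the 100 genes was 0.98 over the 120 libraries. The mean of block 1 had an r of 0.98 with the axis of those other genes and the mean of block 2 an r of -0.85. Among the 4541, 33.6% had an r of at least 0.5 with the mean of block 1 and 16.3% an r of -0.5 or less. The 100 genes are thus the end of a wider range in the size of their deviations.

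Several measures of the libraries moved with block 1 inside the groups. The number of genes detected, thinned to 1000000 counts, had a Pearson r of 0.60 and a Spearman rho of 0.66 with the mean of block 1 over the 120 libraries. Within the sets the r was 0.43 (First) and 0.80 (Second). The percentage of counts in the 10 highest genes had a Pearson r of -0.57 and a rho of -0.54, with an r of -0.35 (First) and -0.80 (Second). A library rich in block 1 therefore tended to detect more genes and to give less of its counts to the highest genes. For the log2 of the library total the r was 0.15 and the rho 0.10, but within the sets the r was -0.23 (First) and 0.44 (Second). Block 2 had an r of -0.30 with the library total, with -0.02 (First) and -0.54 (Second). Plate row had an r of -0.17 with block 1, with -0.06 (First) and -0.32 (Second). Plate column had 0.19, with 0.02 (First) and 0.45 (Second). The part of RNA quality, or of how many molecules entered a library, in the spread of these genes was not tested.

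**Figure D3:**
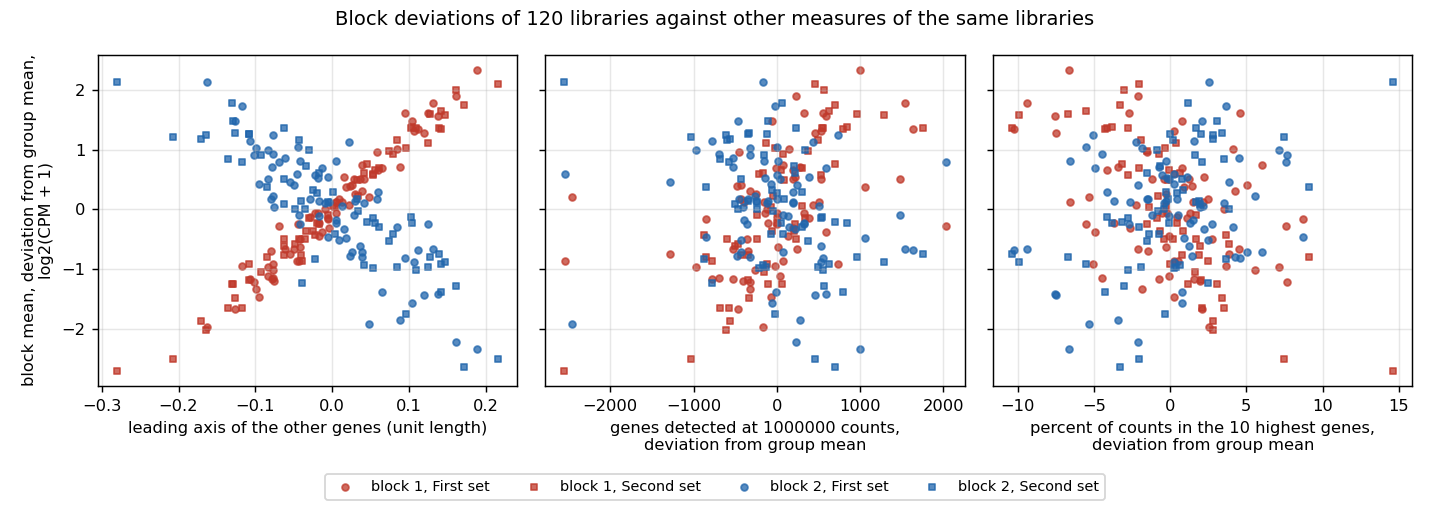
Deviation of the mean log2(CPM + 1) of block 1 (red) and block 2 (blue) from the group mean in 120 libraries, against the leading axis of 4541 other genes (left), genes detected at 1000000 counts (middle) and percent of counts in the 10 highest genes (right), both as deviations from the group mean. Circles are First set and squares Second set libraries. Block 1 has an r of 0.98, 0.60 and -0.57 with the 3 measures.

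Read as a level, the mean log2(CPM + 1) of block 1 ran from 2.44 to 7.63 over all libraries of at least 1000000 counts, with a median of 4.71, and the 87 genes together took 0.147% to 5.47% of a library's counts. Within a group of 3 the level ranged over 0.15 to 4.11 with a median of 2.46. The range was at least 1 in 33 of the 40 groups and at least 2 in 25. The high library was the one apart in 23 groups and the low one in 17. Groups of narrow and wide range stood side by side in time. At 22 °C the 3 libraries lay between 3.16 and 3.51 on day 20 and between 7.41 and 7.56 on day 34, but at 3.31, 7.36 and 7.37 on day 41. Of the variance in each gene over the 120 libraries, group means carried a median of 48.2% in the 100 genes and 58.5% in all 4641, where groups that do not differ would give 32.8%. The rule fixes a high spread within groups, so no test of this share is given.

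**Figure D4:**
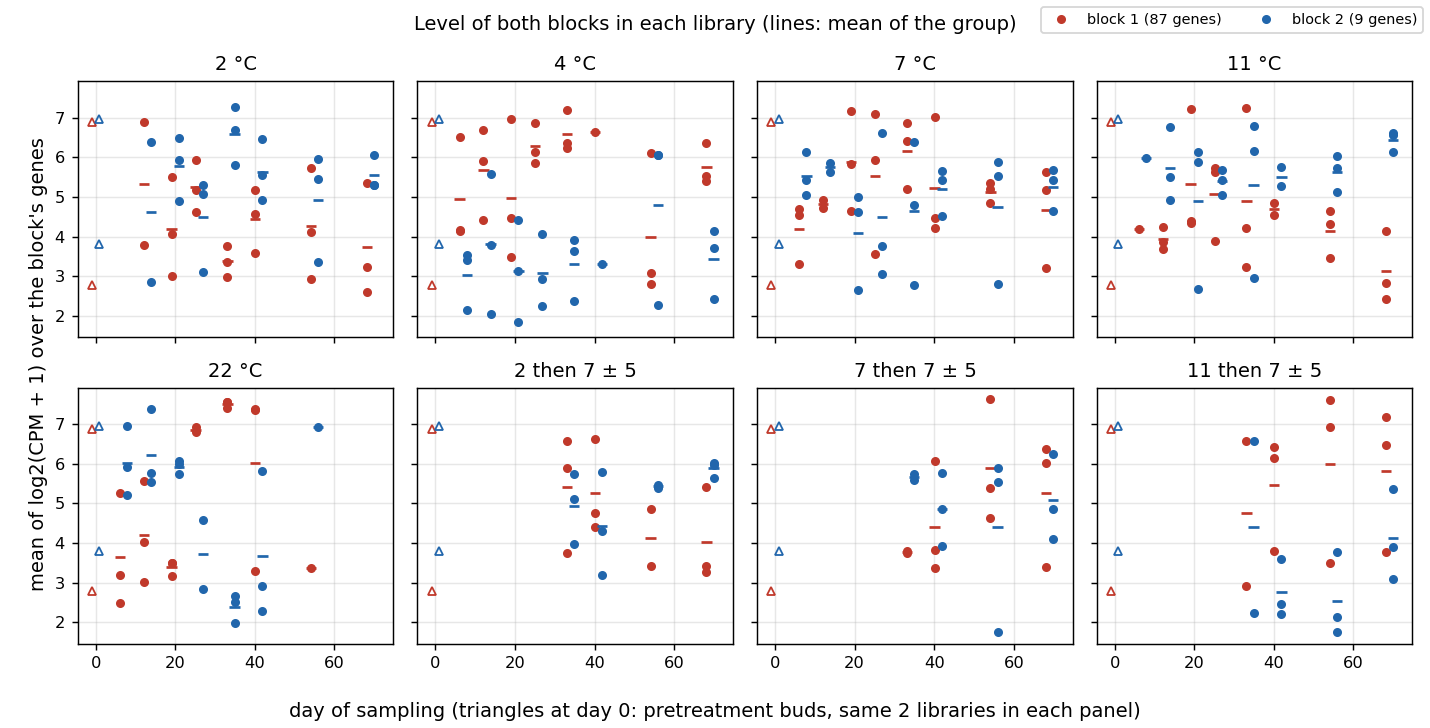
Mean log2(CPM + 1) of the genes of block 1 (red) and block 2 (blue) in each library of at least 1000000 counts by day of sampling, 1 panel to a regime. Short lines are group means and triangles 2 pretreatment libraries, repeated in each panel. At 22 °C block 1 lies between 2.50 and 5.55 on days 7 to 20 and between 7.41 and 7.56 on day 34.

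The median level of block 1 was 4.09 at constant 2 °C (20 libraries of at least 1000000 counts), 5.999 at 4 °C (22), 5.17 at 7 °C (23), 4.23 at 11 °C (21) and 4.65 at 22 °C (18). The SD over the libraries of each of these regimes was 1.15 to 1.95, so the libraries of neighbouring regimes overlapped widely. All 4 °C libraries are in the Second set and those of 2, 7 and 11 °C in the First, so the set and the temperature cannot be told apart there. At 22 °C the level differed between days. It was 2.50 to 5.55 on days 7, 13 and 20. On day 26 replicate 1 (First set) read 6.92 and replicate 3 (Second set) 6.80, while replicate 2 (First set, 388575 counts, under the minimum) read 4.76 for block 1 and 6.91 for block 2. The level was 7.41 to 7.56 on day 34, 3.31, 7.36 and 7.37 on day 41, and 3.38 in the only library of day 55 with at least 1000000 counts. The 22 °C libraries before day 26 are all First set and those after it all Second set, so day and set cannot be told apart there. Block 2 moved the other way, and gene 28051 read 475 to 3228 CPM in the 9 libraries of days 7 to 20 and 48.3, 63.9 and 51.96 CPM on day 34. After transfer to the fluctuating chamber the median level of block 1 was 4.77 after 2 °C, 4.63 after 7 °C and 6.43 after 11 °C, in 11 libraries each.

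The spread itself also differed between regimes in size. The median SD of the 100 genes was 1.04 at 11 °C, 1.10 at 2 °C, 1.21 at 4 °C, 1.23 under fluctuation after 2 °C, 1.25 at 7 °C, 1.35 at 22 °C, 1.59 under fluctuation after 7 °C and 1.73 under fluctuation after 11 °C, over 3 to 7 groups each. Single groups of 1 regime ran much further apart, from 0.21 to 2.39 at 22 °C, so neighbours in this order do not differ beyond their spread between days. These SDs chose the genes and were not tested.

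Changes with temperature and day were tested on the counts with edgeR's quasi-likelihood test over all genes, and a gene was called at a Benjamini-Hochberg adjusted p under 0.05. The SDs that ranked the genes did not use the group means that these tests compare, but a high spread within groups makes a call harder. The minimum mean of 20 CPM did use the levels of all libraries of at least 1000000 counts. A gene with a low level in most libraries can thus have entered through those where it was high.

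In the first 3 weeks, 2 °C was compared with 22 °C on days 7, 13 and 20 (9 libraries against 9, all First set). At 2 °C every library of day 7 and replicate 1 of day 13 held fewer than 1000000 counts. Of the 100 genes 30 rose and 6 fell at 2 °C. Of the 10160 genes in the fit 51.9% passed (25.2% with higher and 26.6% with lower counts in the cold). Whether the share of the 100 genes lay under or over that of all genes depended on the fit. Gene 12216 changed most, with 49.9 CPM in the lowest, 282 in the median and 2398 in the highest library at 2 °C against 0.838, 2.75 and 14.7 CPM at 22 °C. The 9 libraries of 2 °C all lay above the 9 of 22 °C, and the log2 difference was 6.13 ± 0.65 (SE; edgeR adjusted p = 4.06e-08). Gene 38452 read 32.3, 55.97 and 1345 CPM at 2 °C against 0, 2.64 and 12.3 CPM at 22 °C, again without overlap, with a log2 difference of 4.99 ± 0.63 (adjusted p = 5.71e-07). Gene 37216 was lower in the cold, with 0, 1.98 and 34.3 CPM against 3.92, 21.6 and 71.1 CPM and overlapping groups, and a log2 difference of -2.75 ± 0.54 (adjusted p = 0.000161). It had at most 3 counts in 6 of the 9 libraries at 2 °C. Gene 28051 of block 2 was lower at 2 °C by a log2 difference of -1.64 ± 0.43 (adjusted p = 0.00232), with 72.5, 562 and 1333 CPM against 475, 1310 and 3228 CPM. In block 1, 28 genes rose and 4 fell, and in block 2, 1 rose and 2 fell. The median log2 difference was 0.60 over the 100 genes and -0.02 over all genes tested. Replicate 3 of 2 °C on day 13 had a block 1 level of 6.88, the highest at that temperature. Without replicate 3 of each group 11 genes rose and 17 fell, the median was -0.23 and 40.2% of all genes were called. Without replicate 1, 59 rose and 6 fell (47.9% of all genes), and without replicate 2, 19 rose and 3 fell (36.5%). With no filter on low counts 59 of the 100 were called, against 27.1% of all genes. That fit took in 23591 genes, those of low counts included, so its 2 shares are not of genes of like level.

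Later in the course, 4 °C was compared with 22 °C on days 34, 41 and 55 (9 libraries against 9, all Second set). Replicates 1 and 2 of 4 °C on day 41 and replicates 1 and 3 of 22 °C on day 55 held fewer than 1000000 counts. Of the 99 genes tested 11 rose and 15 fell at 4 °C, with 30% of all 10714 genes called (13.4% higher and 16.5% lower). Genes 12216 and 38452 were again higher in the cold. Gene 12216 read 24.9, 543 and 1706 CPM in the lowest, median and highest library at 4 °C against 2.92, 20.5 and 408 CPM at 22 °C (log2 difference 4.49 ± 1.03, edgeR adjusted p = 0.00253). Gene 38452 read 13.0, 79.3 and 352 CPM against 0, 6.89 and 107.4 CPM (3.55 ± 0.87, adjusted p = 0.00403). Both genes overlapped between the groups here, and neither was called without replicate 3, where the log2 differences were 4.05 and 3.19. Gene 34618 was lower at 4 °C, with 0, 7.37 and 64.1 CPM against 1.75, 284 and 373 CPM (-3.61 ± 0.76, adjusted p = 0.00131). Gene 18360 read 0.946, 9.47 and 34.2 CPM against 2.36, 125.4 and 787 CPM (-3.16 ± 0.69, adjusted p = 0.00181) and was not called in the libraries of at least 1000000 counts alone. Over all libraries of that depth gene 34618 had a median of 3.39 and a mean of 26.2 CPM, and gene 18360 had 5.79 and 22.9 CPM. Their highest libraries, at 373 and 787 CPM, were at 22 °C. Both genes may thus have passed the minimum mean of 20 CPM through libraries compared here. Called genes numbered 16 without replicate 1 (15.4% of all genes), 39 of 99 without replicate 2 (34.5%) and 10 without replicate 3 (11.7%). With no filter on low counts 50 were called, against 19.6% of all 23233 genes, where the 2 shares are again not of genes of like level. With RLE in place of TMM scaling, which moved the median of all genes from -0.04 to -0.21, 9 of the 100 genes rose and 22 fell.

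Over the whole course, 2 °C was compared with 11 °C (24 libraries against 24, all First set, the early 2 °C libraries being those compared with 22 °C above). Replicates 1 and 3 of 11 °C on day 7 held 57968 and 27485 counts. Of the 100 genes 7 rose and 16 fell at 2 °C, against 42.7% of all 12130 genes called, 21.3% in either direction. Genes 10836 and 10843, the pair outside the blocks, both rose. Gene 10836 read 30.2 CPM in the lowest, 104.9996 in the median and 2393 in the highest library at 2 °C against 0, 27.0 and 237 CPM at 11 °C, and its log2 difference was 2.38 ± 0.52 (edgeR adjusted p = 0.000191). Gene 10843 read 21.7, 88.2 and 614 CPM against 0, 21.1 and 186 CPM (2.49 ± 0.50, adjusted p = 6.54e-05). Both were also higher at 4 °C than at 22 °C, by 2.92 ± 0.74 and 2.54 ± 0.70 (adjusted p = 0.00500 and 0.00926). In 2 against 22 °C gene 10843 was called, at 2.07 ± 0.49 (edgeR adjusted p = 0.000988). Gene 10836 was not, at 1.02 ± 0.52 (adjusted p = 0.108). Gene 37216 was lower at 2 °C, with 0, 2.54 and 34.3 CPM against 0, 19.6 and 373 CPM (-3.06 ± 0.50, adjusted p = 2.47e-06). Gene 34549 read 0, 2.55 and 25.3 CPM against 2.25, 12.6 and 421 CPM (-2.59 ± 0.44, adjusted p = 4.78e-06). The groups overlapped for all 4 genes. Block 1 as a whole gave no common direction, with 5 genes up, 16 down and a median log2 difference of -0.14. The direction of the balance turned without replicate 1, where 18 genes rose and 4 fell. Called genes numbered 22 without replicate 1 (38.2% of all genes), 8 without replicate 2 (25.6%) and 41 without replicate 3 (35.9%). The order of the share of the 100 and that of all genes thus depended on the fit. With no filter on low counts 52 were called, against 21.6% of all genes. That fit took in 26919 genes, those of low counts included, so its 2 shares are not of genes of like level.

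**Figure D5:**
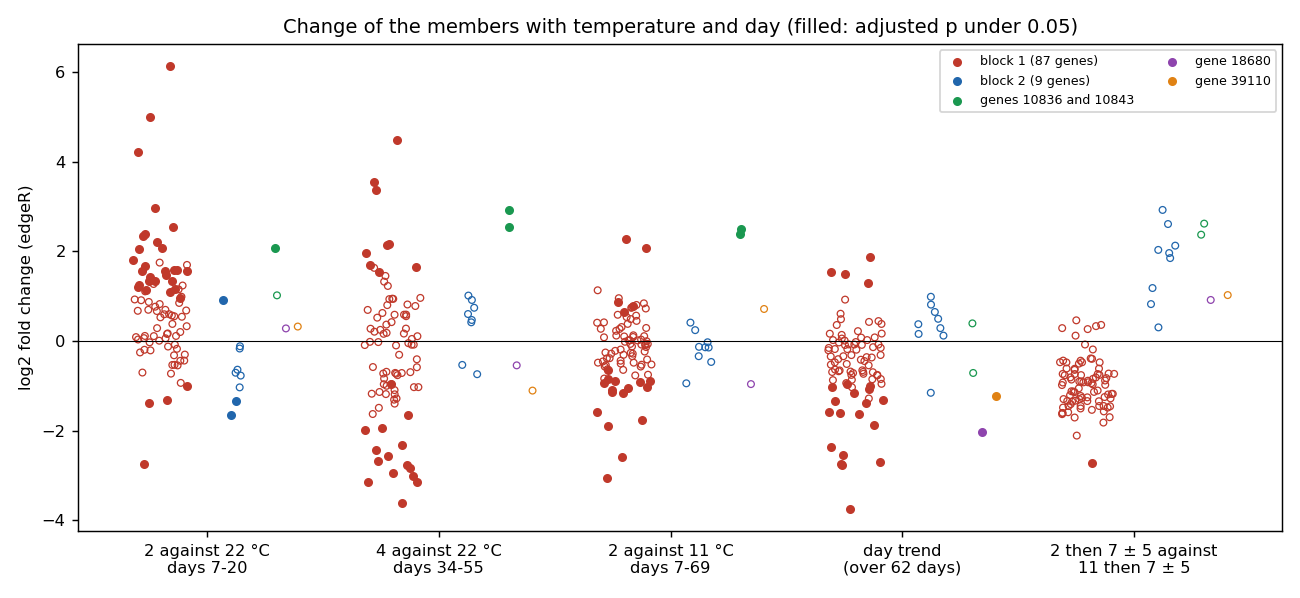
Log2 change of each of the 100 genes in 5 comparisons of temperature or day, grouped and coloured by block, as fitted by edgeR. Filled points have an adjusted p under 0.05. Genes 12216 and 38452 are the highest points of the first comparison, at 6.13 and 4.99, and in the last comparison 1 point is filled although 81 of the 87 points of block 1 lie below 0.

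A common slope over days 7 to 69 was tested within constant 2, 4, 7 and 11 °C (24 libraries each) and is given as the log2 change over 62 days. Over the course 4 of the 100 genes rose and 20 fell, against 39.6% of all 11618 genes tested, 19.9% with a rise and 19.7% with a fall. Gene 4053 fell by 3.76 ± 0.69 (SE; edgeR adjusted p = 4.01e-06). At 7 °C its 3 libraries read 522, 34.3 and 264 CPM on day 20 and 18.2, 10.5 and 1.13 CPM on day 69. Gene 12216 fell by 2.76 ± 0.50 (adjusted p = 2.71e-06), and at 4 °C it read 1120, 1913 and 364 CPM on day 13 and 179, 309 and 230 CPM on day 69. Gene 27249 rose by 1.86 ± 0.49 (adjusted p = 0.00138), with 14.3, 10.5 and 1.601 CPM at 4 °C on day 7 and 89.1, 217 and 97.4 CPM on day 69. Gene 40380 rose by 1.53 ± 0.48 (adjusted p = 0.00682), and read 20.4, 14.2 and 3.80 CPM and then 82.3, 117 and 73.7 CPM in those groups. Neither rise was called without replicate 3 or in the First set alone. In that set 0 of the 100 genes rose and 17 fell, against 30.4% of all genes called. At 11 °C gene 27249 read 2.59, 3.39 and 2.88 CPM on day 69. With a slope for each temperature, its fitted log2 change was 2.96, 3.38, 1.37 and -1.71 at 2, 4, 7 and 11 °C. That of gene 40380 was 2.12, 2.34, 1.71 and -1.24, so neither fitted rise extended to 11 °C. The edgeR test of a difference between these slopes called neither gene (adjusted p = 0.115 and 0.492). DESeq2 called it for gene 27249 (adjusted p = 0.0392). Genes 18680 and 39110 also fell, by 2.04 ± 0.61 and by 1.24 ± 0.45 (adjusted p = 0.00459 and 0.0210), and no gene of block 2 was called. Without replicate 1, and also without replicate 2, 15 of the 100 genes were called, against 30.4% and 28.0% of all genes. Without replicate 3 it was 17, against 30.1%.

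A difference of that slope between the 4 temperatures was called in 1 of the 100 genes, against 0.946% of 12903 genes tested. This was gene 14528, whose fitted log2 change over 62 days was -0.36 at 2 °C, -1.98 at 4 °C, -3.51 at 7 °C and -4.88 at 11 °C (edgeR adjusted p = 0.0265). Its 3 libraries read at 11 °C 1758 to 4747 CPM on day 13 and 73.5 to 450 CPM on day 69. At 2 °C they read 2529 to 14056 CPM on day 20 and 753 to 9963 CPM on day 69, so that the late libraries of 11 °C lay below those of 2 °C. The adjusted p was 0.154, 0.207 and 0.402 without replicates 1, 2 and 3.

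After transfer to the same fluctuating chamber, buds that had spent phase I at 2 °C were compared with those from 11 °C over days 34 to 69 (12 libraries against 12, all Second set). Only gene 16282 of the 100 was called, against 1.17% of all 11080 genes (0.397% higher and 0.776% lower after 2 °C). It read 0, 11.5 and 34.9 CPM in the lowest, median and highest library after 2 °C against 5.85, 87.2 and 463 CPM after 11 °C, with overlap, and the log2 difference was -2.72 ± 0.55 (edgeR adjusted p = 0.0160). The adjusted p was 0.0640, 0.895 and 0.0678 without replicates 1, 2 and 3. DESeq2 called 3 of the 100 genes higher and 19 lower, against 9.06% of all genes. An unadjusted edgeR p under 0.05 was found in 44 of the 100 genes and in 2302 of all 11080. The fitted difference was below 0 in 81 of the 87 genes of block 1 and above 0 in all 9 of block 2, with medians of -0.98 and 1.96. These genes vary together, so such counts do not add up as separate observations. When the axis of the other genes was added to the fit, an alternative chosen after seeing the data, 50 of the 100 genes were lower and 11 higher after 2 °C, with 24.4% of 11863 genes called. All 9 genes of block 2 were among the 11. That axis was computed from deviations within the same groups, and using it lowers the residual spread. The fits with that axis keep only libraries of at least 1000000 counts in groups with at least 2 of them. At 2 °C no library of day 7 is kept. Neither 4 °C on day 41 nor 22 °C on day 55 is kept, so only day 34 then compares 4 with 22 °C. With the same term 51 of the 100 genes were called in 2 against 22 °C (45.9% of all genes), 54 in 4 against 22 °C (32.5%), 48 in 2 against 11 °C (45.9%) and 37 in the day trend (41.2%).

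Labels of the libraries that differ within groups were tested in the same way. With the library total as the tested term, genes 29434 and 9884 of block 2 were called out of the 100, and both were lower in larger libraries, by -0.53 ± 0.15 and -0.45 ± 0.13 per doubling of the total (edgeR adjusted p = 0.0194 and 0.0225). Of all 15301 genes 7.75% were called, 7.31% higher and 0.444% lower in larger libraries. Neither gene was called in libraries of at least 1000000 counts alone. In the First set some library names carry a letter after the sample number, whose meaning the labels do not state. With that letter as the tested term edgeR called 0 of the 100 genes and 0% of 14288. DESeq2 called 1 of the 100, and edgeR gave an unadjusted p under 0.05 to 10 of them and to 1333 of the 14288, a like share. The fitted difference was below 0, meaning lower with a letter, in 86 of the 87 genes of block 1, and the lowest adjusted p in block 1 was 0.209. Its median was -0.45 over the 100 genes and 0.06 over all genes tested. The genes of block 1 vary together, so their count does not add up as separate observations.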

How the data were processed

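RNA was extracted with a plant RNA column kit, a QuantSeq 3′ mRNA kit, which counts transcripts by their ends, gave the libraries, and these were run on a NextSeq500, per the labels' protocols. The authors deposited 1 table of raw read counts per gene, not normalized, with 1 column per library, and 0 columns were left unused. FastQC, STAR and DESeq2 are named in the submitters' processing notes. Settings, genome build, annotation, strand handling and removal of duplicate reads are not given in the sources used here. A reference list of gene names was not used, since no row could be matched to it.

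CPM used the column total. Within-group deviations were clustered by average linkage on 1 - r, separated at 0.6. Tests used edgeR 4.0.16 in R 4.3.3 (TMM, filterByExpr, glmQLFit, glmQLFTest) on the counts of the whole table, with day as a factor, or as a number for trends with regime as a factor. Within-group terms had the group as a factor. The fits of 2 against 22 °C, 2 against 11 °C and the day trend were tested on simulated data, in which genes varied independently. The other fits were not. Libraries of all depths entered the tests. The alternatives were DESeq2 1.42.0, RLE scaling, no filter on low counts, only libraries of at least 1000000 counts, the replicate number as a block, each replicate number left out, other settings of the rule, and, added after seeing the data, the axis of the other genes as a covariate and 1 library set alone. Named were the 10 genes with the highest median SD, the first 3 of each block, the 2 largest called rises and falls of each comparison, and 3 genes on either side of the limit of 100. Other genes were named after their values were seen. The genes, rules and tests were chosen with earlier results of these data known.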

Additional observations from a re-analysis of the deposited data

Results flagged for a closer look

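Gene 14528 was marked because its change with day differed between constant 2, 4, 7 and 11 °C in a test of that difference (edgeR, adjusted p = 0.0265, 24 libraries each). The fitted log2 change over 62 days was -0.36, -1.98, -3.51 and -4.88 in that order of temperature. The adjusted p was 0.0201 in the First set alone, which leaves out 4 °C, 0.00722 with DESeq2 and 0.141 in libraries of at least 1000000 counts. The part of the unequal library sets in the 4 °C slope was not tested.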

How the results depend on the processing

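Numbers are of the 100 genes called at an adjusted p under 0.05, in the order 2 against 22 °C, 4 against 22 °C, 2 against 11 °C, day trend, difference of trend, fluctuation after 2 against after 11 °C, library total and name letter, where the results reported were 36, 26, 23, 24, 1, 1, 2 and 0. With no filter on low counts 59, 50 and 52 genes were called in the temperature comparisons, 67 after fluctuation, 35 for library total and 17 for the name letter, against 27.1, 19.6, 21.6, 4.67, 1.85 and 0.425% of all genes. All genes there include those of low counts, so these shares are not of genes of like level. DESeq2 called 2 for the difference of trend, 22 after fluctuation, 6 for library total and 1 for the name letter, against 1.87, 9.06, 3.91 and 0.0070% of all genes. For the name letter it gave no adjusted p to 78 of the 100. In libraries of at least 1000000 counts alone 0 were called for the difference of trend and 0 for library total. The shares of all genes were 0.441 and 0.0467%. With the axis of the other genes as a covariate, which also leaves out libraries, 54, 48, 37 and 61 were called in 4 against 22 °C, 2 against 11 °C, day trend and after fluctuation. Leaving out each replicate number in turn gave 22 to 65, 10 to 39, 8 to 41, 15 to 17, 0 to 0, 0 to 0, 0 to 0 and 0 to 0. The shares of all genes called then ran from 36.5 to 47.9, 11.7 to 34.5, 25.6 to 38.2 and 28.0 to 30.4% in the first 4. In the last 4 they ran from 0.0837 to 0.306, 0 to 0.864, 0.715 to 1.28 and 0 to 0%. In 2 against 22 °C, 17 of the 36 genes were still called without replicate 3. The cause was not tested. The other alternatives stayed within 1.5 times.

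With the replicate number as a block the counts were 33, 37, 22, 24, 1, 1, 3 and 0. The shares of all genes called were 48.9, 33.7, 41.5, 39.2, 0.938, 1.55, 7.45 and 0% in the same order. Same-numbered libraries had mean correlations of 0.03 and 0.17 between 2 or 4 and 22 °C. The means were 0.07 between 2 and 11 °C and 0.15 after fluctuation. Differently numbered libraries had means of -0.02, -0.08, -0.04 and -0.08 in that order. Each comparison held some same-numbered pair below 0. The numbers were not taken to pair libraries, and a pairing was not tested.

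Of the alternative fits of the genes named in the comparisons other than the difference of trend, 18 lost the call, 0 turned direction and the others kept both. Gene 14528, named for the difference of trend, is not in that count. It lost the call in libraries of at least 1000000 counts alone and without each replicate number. The membership kept 84 of the 100 genes with TMM-scaled CPM, 93 with log2(CPM + 0.25), 89 with the mean of the SDs, 89 with all libraries, 91 to 96 with each regime left out, and 45 with a minimum mean of 50 CPM, which by construction removes 55. Block 1 held 87 genes in every clustering tried. Depth limits the lower end of the range, where 3 counts stand for up to 2.95 CPM in the 120 libraries of the rule. The tests also used libraries down to 27485 counts, where 3 counts stand for more.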
